A study of Homo sapiens with 6 samples.

Results

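Jeko is a human cell line derived from mantle cell lymphoma (a cancer of B cells), and the comparison described here is between its 2 CRISPR guide RNAs against the same gene, NR4A1, which encodes a nuclear receptor induced as an immediate early gene. Members are the gene rows with a mean of 5 FPKM or more over the library labelled sgRNA 1 and the library labelled sgRNA 2. FPKM is a gene's fragment number set against its transcript length and against all mapped fragments of the library. The rule kept 7944 of 25277 rows, of which 7489 were protein-coding, 229 were small RNA genes by name and 226 were other rows. It used the level alone and not the difference between the guides. At its edge, MED31 was just inside with a mean of 5.002 FPKM (5.25 with sgRNA 1 and 4.76 with sgRNA 2). UTP20 was just outside, with a mean of 4.998 FPKM (6.98 and 3.01).

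All cells expressed Cas9 and held a tet-on vector, which doxycycline switched on for 48 h. The Jeko control carried the empty vector, and the other Jeko libraries carried a vector with sgRNA 1 or with sgRNA 2. The second line, Rec-1, has the same 3 kinds of library. Total RNA was sequenced, and there was 1 library per line and vector, so no value below has a replicate error and none was tested. A difference between the Jeko guides can therefore be a difference between guides, between the 2 cell pools or between 2 libraries, and these cannot be told apart. The guide sequences and their cut sites in NR4A1 were not analysed here. These are whole-culture libraries, in which fewer cells expressing a gene and less RNA per cell cannot be told apart.

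The lists described first cover the stress responses of translation and of the endoplasmic reticulum (ER). In the integrated stress response, kinases that sense amino acid shortage, viral RNA, haem shortage or misfolded ER proteins phosphorylate the initiation factor eIF2, which slows translation in general and favours translation of the transcription factor ATF4. ATF4 induces DDIT3 (CHOP), TRIB3 and genes for amino acid synthesis, import and tRNA charging. The unfolded protein response of the ER shares the kinase EIF2AK3 (PERK) with it and adds the sensors ERN1 (IRE1), which splices XBP1 mRNA, and ATF6. Both XBP1 and ATF6 induce chaperones such as HSPA5 (BiP) and the machinery of folding, glycosylation, secretion and degradation of ER proteins. B-lineage cells rely on this response when they make immunoglobulin in bulk.

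NR4A1 itself (chr12:52416616-52453291 on GRCh37, plus strand) was at 5.99 FPKM in the Jeko control, 3.89 with sgRNA 1 and 4.44 with sgRNA 2. The guide libraries thus held 64.9% and 74.1% of the control value, and the guides were 0.15 apart on the log2 scale (-0.15, sgRNA 1 minus sgRNA 2). Its mean was under the filter, so NR4A1 is not a member. Repair after a Cas9 cut can disrupt a protein without lowering its mRNA, so these levels do not measure how far either guide disrupted the gene.

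The 2 guide libraries were alike in summed FPKM but not in estimated relative depth. Their FPKM summed to 1.16e+06 and 1.14e+06. Of that sum 2 rows with microRNA names, MIR6723 and MIR4461, held 36.7% and 36.9%, against 25.4% in the control. FPKM is set against transcript length, so this is not a share of fragments, and which RNA the fragments came from was not analysed. The deposited values give no read depth. The spacing of the lowest values put sgRNA 1 at 0.872 and sgRNA 2 at 1.103 of the control's depth, ratios shared by 34.6% and 30.01% of the low genes compared. The B-cell markers MS4A1, CD79A, CD79B, PAX5 and CD22 passed the filter, and CD79A, a chain of the B-cell receptor, was at 273 FPKM in the control, 265 with sgRNA 1 and 378 with sgRNA 2. CCND1 and SOX11, which mark mantle cell lymphoma, also passed. None of 33 markers of T cells, NK cells, monocytes, erythroid cells, fibroblasts and epithelial cells did, and no list of them summed to more than 5.70 FPKM in a Jeko library.

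The library labelled Rec-1 control stood apart from the 2 Rec-1 guide libraries and was not used as a Rec-1 baseline. Compared with the Jeko control, 63 of 7221 protein-coding rows were 2-fold higher in it (0.872%) and 12 were lower (0.166%), where 2-fold means a difference of 1 in log2(FPKM + 1). Its CCND1, SOX11 and CD5 summed to 505 FPKM, near the 605 of the Jeko control, against 4.36 and 3.10 in the Rec-1 guide libraries. The T-cell markers summed to 2.72 FPKM in it, against 102.7 and 120.2 in the Rec-1 guide libraries. Which of these libraries match their label cannot be told from these values, and this limits every Rec-1 value below.

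In all rows, 164 of 7944 were 2-fold or more higher with sgRNA 1 (2.06%) and 248 were 2-fold or more lower (3.12%). From here on, a signed value in parentheses after a gene's levels is sgRNA 1 minus sgRNA 2 in log2(FPKM + 1), and 3 levels in a row are those of the Jeko control, sgRNA 1 and sgRNA 2. Small RNA rows made up 135 of these 412. A total of 135 of 229 small RNA members were 2-fold apart (59.0%), among them 51 microRNA and 82 snoRNA or scaRNA rows, and 73 of them were listed at 0 in a guide library. FPKM of such short genes move far with few fragments, and small RNA rows are left aside from here. Among protein-coding members, 71 of 7489 were higher with sgRNA 1 (0.948%) and 193 were lower (2.58%). The 9 lists of sensors and factors, ATF4 targets, amino acid supply and ER function held 158 members. Of these 55 were 2-fold or more lower with sgRNA 1 (34.8%) and 0 were 2-fold higher. The median difference over protein-coding members was 0.05, and 44.7% of them lay below 0. The excess of genes on the lower side thus sits in the tail of large differences and not in the bulk of the genes.

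**Figure D1:**
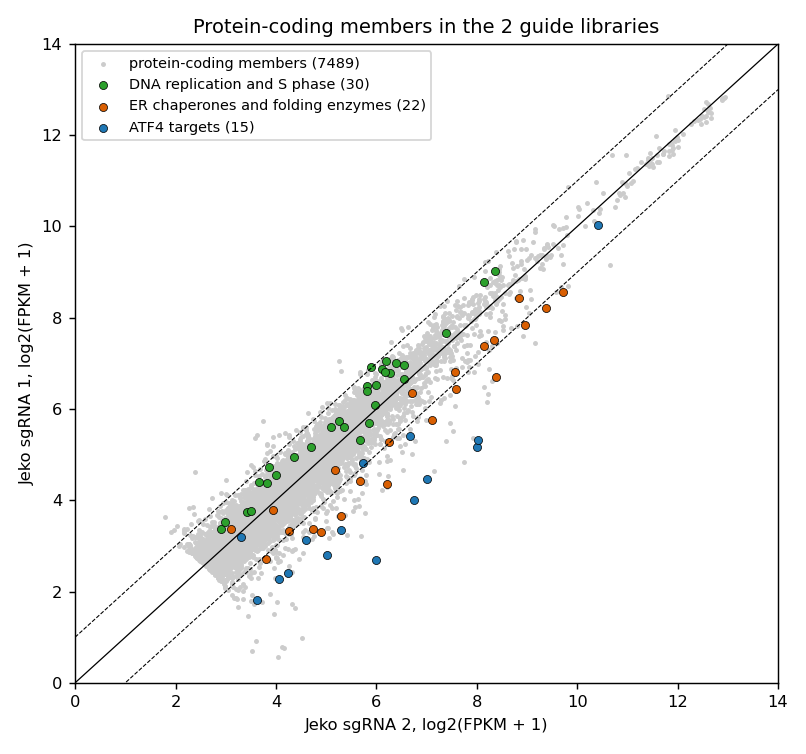
Level of 7489 protein-coding members with sgRNA 2 (horizontal axis) and sgRNA 1 (vertical axis), each as log2(FPKM + 1), with 1 point per gene, a solid line of equal level and dashed lines 2-fold either side. The 15 ATF4 targets (blue) and most of the 22 ER chaperone genes (orange) lie under the line of equal level, while 28 of the 30 DNA replication genes (green) lie above it.

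The position of the Jeko control, 1 library, relative to the guides differed from gene to gene. Of the 193 protein-coding genes lower with sgRNA 1, 40 were 2-fold or more from the control in the sgRNA 1 library alone, 62 in the sgRNA 2 library alone, 9 in both and 82 in neither. The control lay between the guides for 148 of them, above both for 16 and below both for 29. Their median difference from the control was -0.59 with sgRNA 1 and 0.83 with sgRNA 2. The larger distance from the control was not always on 1 side: in 84 sgRNA 1 was farther from the control and in 109 sgRNA 2 was. Of the 71 genes higher with sgRNA 1, 11 were 2-fold from the control with sgRNA 1 alone, 29 with sgRNA 2 alone, 0 with both and 31 with neither. Their medians were 0.38 with sgRNA 1 and -0.85 with sgRNA 2, and sgRNA 2 was the farther in 46. For 44 of the 193 and 15 of the 71 the lower guide was itself under 5 FPKM, so these rows passed the filter through the other guide.

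Over all protein-coding rows with a mean of 5 FPKM or more in the 2 libraries compared, sgRNA 1 stood 2-fold above the control in 155 of 7329 (2.11%) and below it in 135 (1.84%). With sgRNA 2 the counts were 249 of 7386 above (3.37%) and 178 below (2.41%). Both differences use the same control library, so they are given side by side. Differences from the control also followed transcript length: Spearman's rho with length across 7475 genes was 0.571 for sgRNA 1 and 0.537 for sgRNA 2. From the shortest 1495 genes to the longest 1495 the median ran from -0.33 to 0.43 with sgRNA 1 and from -0.40 to 0.41 with sgRNA 2. Between the guides themselves rho was -0.04, so the length trend is shared and nearly cancels there. For the lists set against the control below, length-adjusted medians are given where they bear on the position of a guide.

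**Figure D2:**
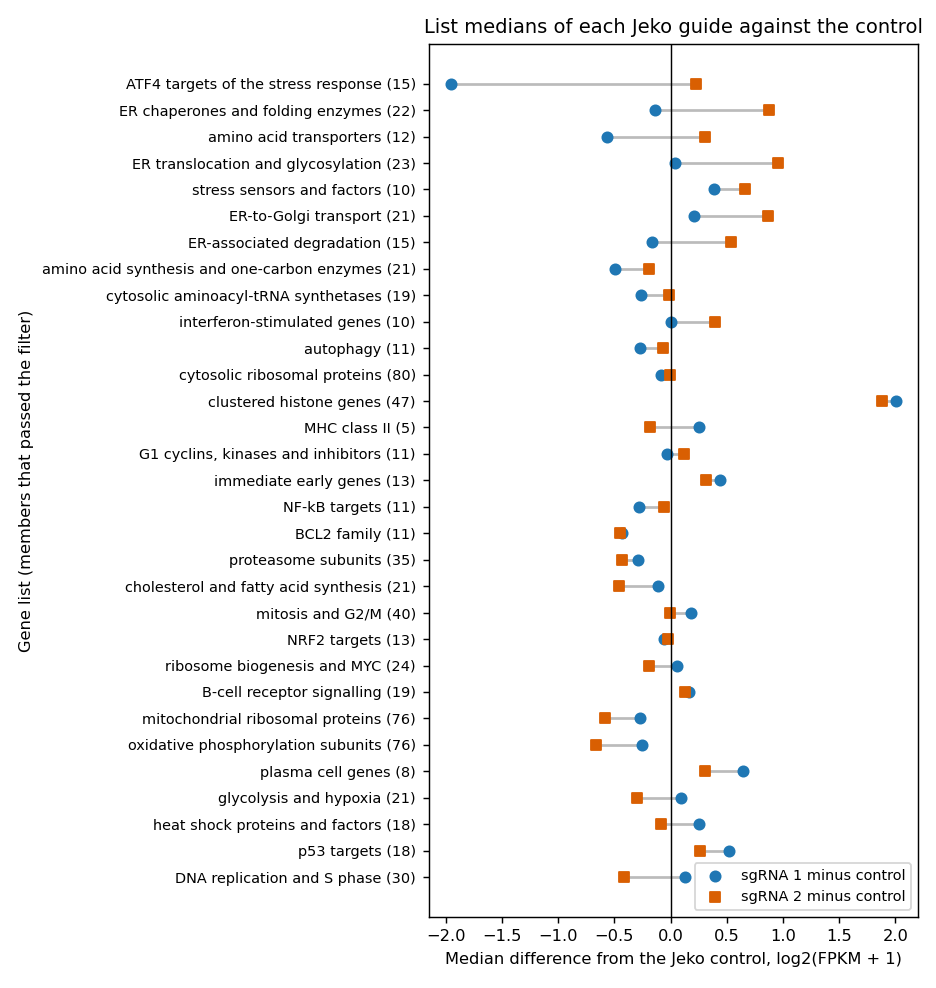
Median difference from the Jeko control in log2(FPKM + 1) for the members of each gene list that passed the filter, with sgRNA 1 as circles and sgRNA 2 as squares, ordered by the difference between the guides. ATF4 targets stand at -1.96 with sgRNA 1 and 0.22 with sgRNA 2, ER chaperones at -0.14 and 0.87, and DNA replication genes at 0.13 and -0.41.

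ATF4 mRNA (chr22:39915700-39918688 on GRCh37) was at 658 FPKM in the control, 379 with sgRNA 1 and 761 with sgRNA 2. It was 1.00 lower with sgRNA 1 than with sgRNA 2 on the log2 scale, and sgRNA 1 was the library farther from the control (-0.79 against 0.21). ATF4 is controlled mainly in translation, so its mRNA is an incomplete measure of its activity. DDIT3, the stress-induced factor CHOP (chr12:57910371-57915520), was at 237 FPKM in the control, 21.2 with sgRNA 1 and 127 with sgRNA 2. Both guides were below the control, at 8.94% and 53.7% of it, and the guides were -2.53 apart.

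The list of ATF4 targets holds 20 genes in the file, of which 15 passed the filter. All 15 were lower with sgRNA 1, and 12 of them 2-fold or more, against 2.58% of protein-coding members. In 3 of the 12 (ATF3, CEBPB and ADM2) sgRNA 1 was under 5 FPKM, so they passed through sgRNA 2, where they were high. Of the 12 targets at 5 FPKM or more in both guides, 9 were 2-fold lower. The median difference between the guides was -1.84 beside 0.05 over all members. It was sgRNA 1 that departed: its median difference from the control was -1.96 (-1.67 adjusted for length, 14 genes). In that library 10 genes were 2-fold or more below the control (beside 1.84% of protein-coding rows), and 14 of 15 were below it at all. Between the Jeko control and the library labelled Rec-1 control the same genes were 0.22 apart at the median. With sgRNA 2 the median was 0.22 (0.09 adjusted), and 1 gene was 2-fold above (beside 3.37% of protein-coding rows). The median level of the 15 genes was 50.3 FPKM in the control, 9.20 with sgRNA 1 and 52.0 with sgRNA 2.

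INHBE, which encodes an inhibin beta subunit made under ER stress, was at 51.3 FPKM in the control, 5.50 with sgRNA 1 and 62.3 with sgRNA 2, a difference of -3.28 between the guides. TRIB3, a pseudokinase that restrains AKT and ATF4, read 219, 34.9 and 256 FPKM in the same order, a difference of -2.84. DDIT4 (REDD1), an inhibitor of mTORC1, read 200.2, 39.0 and 259 FPKM and differed by -2.70. In these 3 genes the control and sgRNA 2 lay close together and sgRNA 1 was far below both. CHAC1, which degrades glutathione, was at 38.0 FPKM in the control, 6.02 with sgRNA 1 and 31.5 with sgRNA 2 (-2.21). SESN2, a leucine-sensing brake on mTORC1, was at 50.5, 9.20 and 38.5 FPKM (-1.95), and the stress-induced factor ATF3 at 20.7, 4.29 and 18.0 FPKM (-1.84). All 3 had the same order, with sgRNA 1 lowest and the control highest.

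PPP1R15A (GADD34), the phosphatase subunit that reverses eIF2 phosphorylation, was the target in which the guides lay 2-fold or more to either side of the control. It was at 50.3 FPKM in the control, 15.0 with sgRNA 1 and 106 with sgRNA 2, which gave -1.68 for sgRNA 1 and 1.06 for sgRNA 2 against the control. The library labelled Rec-1 control stood 1.05 above the Jeko control in this gene, as far as sgRNA 2 did. The peptide hormone gene ADM2 followed with a difference of -1.82 between the guides (8.23 FPKM in the control, 2.50 with sgRNA 1 and 11.4 with sgRNA 2). The transcription factor gene ATF5, the most abundant of the list, was nearly level at 1257, 1052 and 1371 FPKM, and KLHL24 at 6.73, 8.22 and 8.85 FPKM showed the smallest difference. Of the 5 targets under the filter, JDP2 read 4.07 FPKM in the control, 0.446 with sgRNA 1 and 2.61 with sgRNA 2. GDF15 read 0.272, 0.134 and 2.04 FPKM, while NUPR1, STC2 and FGF21 were at or near 0.

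**Figure D3:**
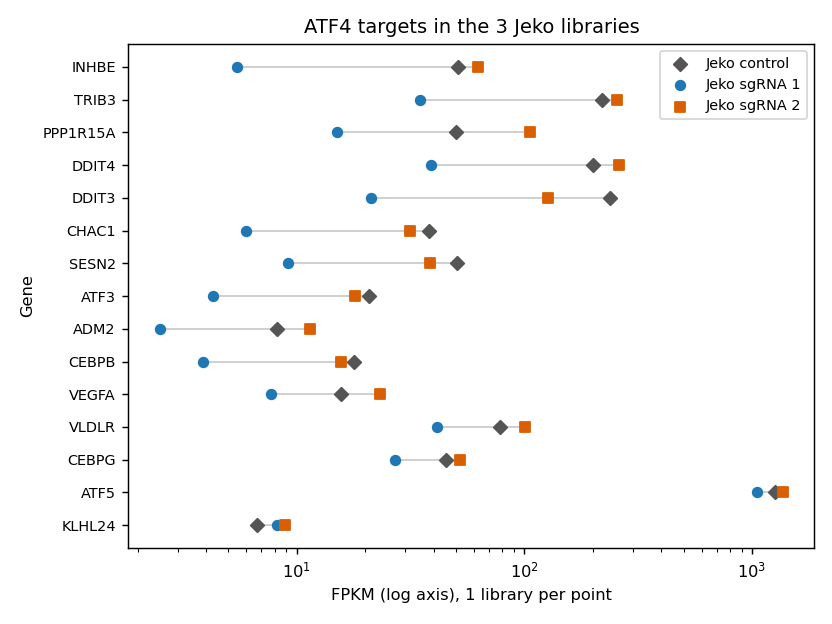
FPKM on a log axis of the 15 ATF4 targets that passed the filter, with 1 point per gene and library for the Jeko control (diamonds), sgRNA 1 (circles) and sgRNA 2 (squares), ordered by the difference between the guides. In 14 of the 15 genes sgRNA 1 is the lowest point; KLHL24, where the control is lowest, is the exception.

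ATF4 binds DNA with C/EBP partners at a composite element whose letters are TGATGNAA on either strand. In the RefSeq promoters of build GRCh38.p14, read over the 250 bases before the start of each gene, these letters stood in 3.89% of 27305 genes and in 2.02% of the 6340 members that matched by symbol. They stood in 3 of 13 ATF4 targets with a promoter (ATF3, CHAC1 and CEBPG). Among amino acid enzymes they stood in 4 of 15 (ASNS, MTHFD1L, GOT1 and BCAT1). Transporters held them in 1 of 12 (SLC1A5) and tRNA synthetases in 2 of 12 (AARS and IARS). The sequences below show the element, in capitals, in 1 stress gene, 1 enzyme and 1 synthetase that were each 2-fold lower with sgRNA 1. All 3 carry it in the reverse orientation, as TTGCATCA when read along the gene, between 187 and 209 bases before the start. ATF3, also 2-fold lower, carries it in the forward orientation as TGATGGAA, 191 bases before the start, so the orientation is not shared by all. A match is a description of the letters and not of binding.
CHAC1 (chr15:40953232-40953299, plus strand): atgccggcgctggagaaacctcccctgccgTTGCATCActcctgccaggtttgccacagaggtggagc
GOT1 (chr10:99430785-99430852, minus strand): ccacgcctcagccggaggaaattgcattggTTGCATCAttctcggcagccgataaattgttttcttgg
AARS (chr16:70289656-70289723, minus strand): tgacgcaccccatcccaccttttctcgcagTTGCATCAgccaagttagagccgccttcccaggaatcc

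Genes of amino acid supply followed in part. Of 52 members on the lists of synthesis, transport and tRNA charging, 12 were 2-fold lower with sgRNA 1 and 0 were 2-fold higher, a share of 23.1% beside 2.58% for protein-coding members. Against the control, 11 of the 52 were 2-fold lower with sgRNA 1, beside 1.84% of protein-coding rows. With sgRNA 2, 2 of the 52 were 2-fold higher, beside 3.37%. The direction was less uniform than among the ATF4 targets: 35 of the 52 were lower with sgRNA 1 than with sgRNA 2 and 17 were higher.

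Among 21 enzymes of amino acid and one-carbon synthesis the median difference between the guides was -0.50. In this list 4 were 2-fold lower, beside 2.58% of protein-coding members. PSAT1, of serine synthesis, was at 83.1 FPKM in the control, 18.5 with sgRNA 1 and 72.8 with sgRNA 2 (-1.92), so that sgRNA 1 departed. ASS1, which makes argininosuccinate on the way to arginine, was at 49.7, 27.8 and 212 FPKM (-2.89), and here sgRNA 2 was the farther from the control at 2.07. CBS, of the transsulfuration pathway, was at 6.68, 2.14 and 19.7 FPKM (-2.72), 2-fold below the control with sgRNA 1 and 2-fold above it with sgRNA 2. Its value was under 5 FPKM with sgRNA 1, and the library labelled Rec-1 control stood 1.31 above the Jeko control. The aspartate aminotransferase gene GOT1 was at 53.5, 28.04 and 73.4 FPKM (-1.36), with neither guide 2-fold from the control. In PSAT1 the library apart from the control was thus sgRNA 1, in ASS1 mainly sgRNA 2 and in CBS both.

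Of the other enzymes, ASNS (asparagine synthetase) was at 222 FPKM in the control, 98.9 with sgRNA 1 and 182 with sgRNA 2, and was -0.88 between the guides and -1.16 with sgRNA 1 against the control. The glutamate-pyruvate transaminase gene GPT2 likewise stood -1.37 from the control with sgRNA 1. These single values lie within 2-fold between the guides because sgRNA 2 was also under the control. OAT and GLUL, at 0.87 and 0.67, were the members farthest to the other side.

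Amino acid transporters had a median difference of -0.89 over 12 members, 5 of them 2-fold lower (beside 2.58% of protein-coding members). SLC6A9, a glycine transporter, was at 12.3 FPKM in the control, 2.30 with sgRNA 1 and 18.9 with sgRNA 2 (-2.59), and so passed the filter through sgRNA 2. SLC43A1, for large neutral amino acids, was at 24.8, 7.90 and 25.5 FPKM (-1.57). The shared heavy chain SLC3A2 was at 326, 117 and 300.1 FPKM (-1.36), and its light chain for leucine and other large amino acids, SLC7A5, at 201, 110.5 and 226 FPKM (-1.02). In each of these 4 genes sgRNA 2 stayed within 2-fold of the control, and sgRNA 1 was the farther. SLC1A4, for serine and alanine, was at 23.1, 13.1 and 29.8 FPKM (-1.12). Against the control the list's median was -0.57 with sgRNA 1 (-0.92 adjusted for length) and 0.30 with sgRNA 2 (0.21 adjusted).

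Of 19 cytosolic tRNA synthetases 3 were 2-fold lower (beside 2.58% of protein-coding members) and the median was -0.42. WARS, for tryptophan, was at 157 FPKM in the control, 79.8 with sgRNA 1 and 299 with sgRNA 2 (-1.89). The serine enzyme SARS was at 197, 118 and 275 FPKM (-1.22), and the alanine enzyme AARS at 189, 111 and 245 FPKM (-1.14). For each of them the control lay between the guides. VARS was listed at 0 in the 3 Jeko libraries and was not counted.

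ER folding genes showed the opposite position of the control. HSPA5, the ER chaperone BiP (chr9:127997132-128003661), was at 114 FPKM in the control, 104 with sgRNA 1 and 333 with sgRNA 2. The guides were -1.68 apart, and sgRNA 1 held 90.8% of the control level while sgRNA 2 held 292%. Of the 22 chaperones and folding enzymes that passed, 21 were lower with sgRNA 1 than with sgRNA 2, with a median of -1.11. The difference was 2-fold or more in 12 of them, beside 2.58% of protein-coding members. Against the control the median was -0.14 with sgRNA 1 (-0.01 adjusted for length), and 0 of 22 were 2-fold away. With sgRNA 2 it was 0.87 (1.16 adjusted), all 22 were above the control and 9 of them by 2-fold or more (beside 3.37% of protein-coding rows).

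HYOU1, an ER partner of HSPA5, was at 23.3 FPKM in the control, 19.6 with sgRNA 1 and 72.9 with sgRNA 2 (-1.84). The co-chaperones DNAJB9 and DNAJC3 read 12.8, 11.6 and 38.1 FPKM and 6.92, 9.29 and 25.7 FPKM in the same order (-1.64 and -1.38). CRELD2 was at 15.8, 8.83 and 29.0 FPKM (-1.61). PDIA3, a disulfide isomerase for glycoproteins, was at 63.4, 52.9 and 137 FPKM (-1.36), and SDF2L1, which works with the HSPA5 cycle, at 27.6, 20.4 and 49.9 FPKM (-1.25). HSP90B1 (GRP94), the ER member of the HSP90 family, was at 287, 298 and 664 FPKM (-1.15). In every one of these the sgRNA 2 library was the highest and the sgRNA 1 library within 2-fold of the control. ERO1L, the disulfide oxidase, was the single folding gene higher with sgRNA 1, at 4.52 FPKM in the control, 9.29 with sgRNA 1 and 7.63 with sgRNA 2 (0.25).

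Of 15 genes of ER-associated degradation 5 were 2-fold lower with sgRNA 1 (beside 2.58% of protein-coding members), and the median was -0.66. HERPUD1, which assembles the degradation complex, was at 122 FPKM in the control, 38.3 with sgRNA 1 and 167 with sgRNA 2 (-2.10), and sgRNA 1 was the farther from the control (-1.65 against 0.45). It is the exception among the 5. SEL1L, the adaptor of the ER ubiquitin ligase, was at 14.5, 12.2 and 53.8 FPKM (-2.05). The selenoprotein genes VIMP and SELK read 25.8, 15.2 and 48.9 FPKM (-1.62) and 51.9, 35.2 and 87.6 FPKM (-1.29), and the mannosidase-like EDEM1 read 51.2, 38.4 and 109 FPKM (-1.48). For these 4 sgRNA 2 was the farther from the control. UFD1L, of the cytosolic extraction complex, stood on the other side at 0.83.

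The same held further along the secretory route. All 23 genes of ER translocation and glycosylation were lower with sgRNA 1, 6 of them 2-fold (beside 2.58% of protein-coding members). The median was -0.79 between the guides, 0.04 for sgRNA 1 against the control and 0.95 for sgRNA 2 (0.12 and 1.00 adjusted for length). SEC11C, a signal peptidase subunit, was at 812 FPKM in the control, 569 with sgRNA 1 and 1603 with sgRNA 2 (-1.49). STT3A, a catalytic subunit of oligosaccharyltransferase, was at 17.9, 21.2 and 49.2 FPKM (-1.17), and the translocon channel SEC61A1 at 58.7, 72.7 and 156 FPKM (-1.09). SSR3, SEC63 and SPCS2 followed with -1.09, -1.06 and -1.02. STT3B differed: it was the 1 gene of the list 2-fold above the control with sgRNA 1. It stood at 1.26 with sgRNA 1 and 1.45 with sgRNA 2, and the guides were -0.19 apart.

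All 21 genes of ER-to-Golgi transport were lower with sgRNA 1 too, 4 of them 2-fold, with a median of -0.71. LMAN1, a cargo receptor for glycoproteins, was at 72.0 FPKM in the control, 96.5 with sgRNA 1 and 317 with sgRNA 2 (-1.70). The COPII coat gene SEC24D was at 7.02, 13.2 and 35.4 FPKM (-1.36), the COPI coat gene COPG1 at 51.4, 53.2 and 126 FPKM (-1.23) and the small GTPase gene ARF4 at 40.8, 46.0 and 101 FPKM (-1.12). All 4 were lowest in the control. Over the 4 ER lists together, 79 of 81 members were lower with sgRNA 1 than with sgRNA 2 and 27 were so by 2-fold (33.3%, beside 2.58% of protein-coding members). In 80 of the 81 sgRNA 2 was above the control, 29 by 2-fold (beside 3.37% of protein-coding rows). By contrast sgRNA 1 was below the control in 40 and above or level in the rest.

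**Figure D4:**
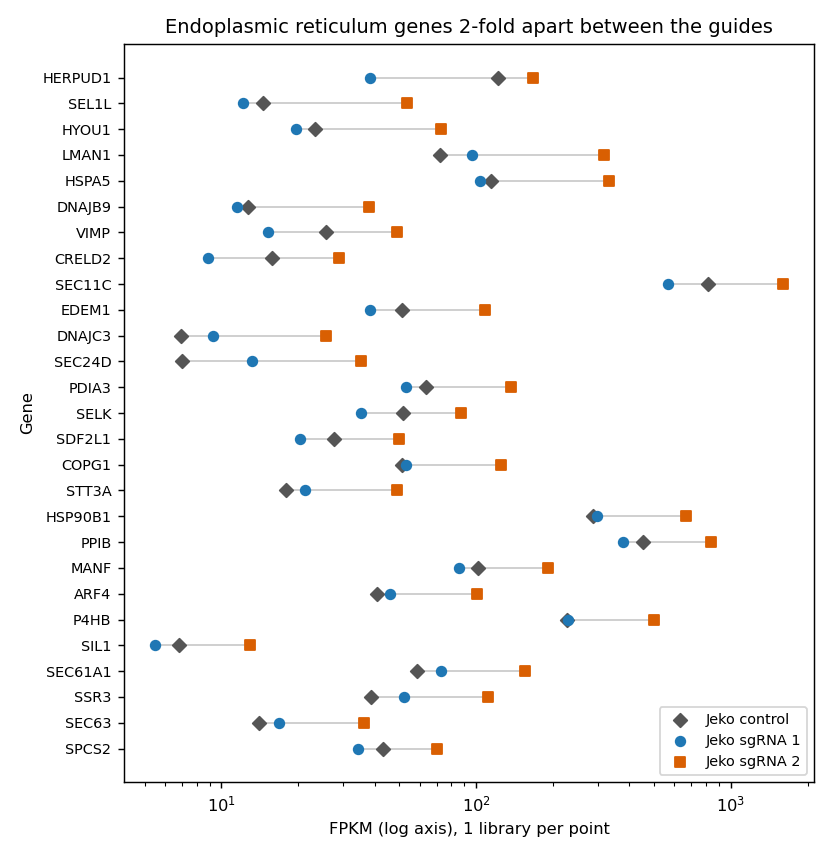
FPKM on a log axis of the 27 genes from the 4 ER lists that were 2-fold or more apart between the guides, with 1 point per gene and library and the same symbols for control, sgRNA 1 and sgRNA 2. The sgRNA 2 point is the highest in every gene, and the sgRNA 1 and control points lie within 2-fold of each other in every gene except HERPUD1.

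ATF6 and XBP1 act at ER stress response elements. The first form, searched as CCAAT and CCACG with 9 free bases between, stood in 0.0916% of the 27305 RefSeq promoters and in 0.205% of those of members. It stood in 6 of 21 ER chaperone genes with a promoter, namely HSPA5, HSP90B1, CALR, CANX, PDIA6 and CRELD2. The second form, ATTGG and CCACG with 1 base between, stood in 0.0659% of all and 0.174% of members' promoters, and in the chaperone genes HYOU1 and SDF2L1. HERPUD1 was the 1 gene of the degradation list to hold the second form. It also holds the ATF4 element, as does SRPRB of the translocation list. Whether these letters bear on the levels was not tested. Neither form overlapped the ATF4 element in the promoters shown. The sequences of GRCh38.p14 are given with the matched letters in capitals; in HERPUD1 the first run of capitals is the ATF4 element and the second the ER element.
HSPA5 (chr9:125241361-125241439, minus strand): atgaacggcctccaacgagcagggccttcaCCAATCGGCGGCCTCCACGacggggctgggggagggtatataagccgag
CRELD2 (chr22:49918524-49918602, plus strand): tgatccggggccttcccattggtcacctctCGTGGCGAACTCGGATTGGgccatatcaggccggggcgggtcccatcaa
SDF2L1 (chr22:21642084-21642154, plus strand): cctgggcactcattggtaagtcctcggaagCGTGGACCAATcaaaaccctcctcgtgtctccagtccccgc
HERPUD1 (chr16:56931936-56932065, plus strand): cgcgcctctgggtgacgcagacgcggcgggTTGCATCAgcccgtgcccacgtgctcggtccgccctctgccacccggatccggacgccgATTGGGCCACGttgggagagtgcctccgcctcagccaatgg
XBP1 (chr22:28800573-28800651, minus strand): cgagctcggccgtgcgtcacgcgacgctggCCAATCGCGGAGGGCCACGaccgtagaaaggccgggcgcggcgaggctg

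The sensors and transcription factors of these pathways did not all differ in 1 direction. Of 10 that passed, 4 were 2-fold lower with sgRNA 1, beside 2.58% of protein-coding members. ERN1 was at 4.83 FPKM in the control, 8.54 with sgRNA 1 and 34.4 with sgRNA 2, so that both guides were above the control, by 0.71 and 2.60. XBP1, whose own promoter holds the first ER element, was at 117, 66.0 and 189 FPKM (-1.50), with the control between the guides. These values count all XBP1 mRNA and do not tell the spliced form. NFE2L1, a factor anchored in the ER that induces proteasome genes, was at 113, 50.7 and 176 FPKM (-1.78). EIF2AK3 at 9.21, 12.6 and 20.8 FPKM and CREB3L2 at 13.6, 17.6 and 32.3 FPKM were within 2-fold between the guides, and 2-fold above the control with sgRNA 2. ATF6, at 7.96, 10.7 and 11.2 FPKM, was level between the guides. The haem-sensing and RNA-sensing kinases EIF2AK1 and EIF2AK2 were slightly higher with sgRNA 1 than with sgRNA 2, at 0.15 and 0.28.

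**Figure D5:**
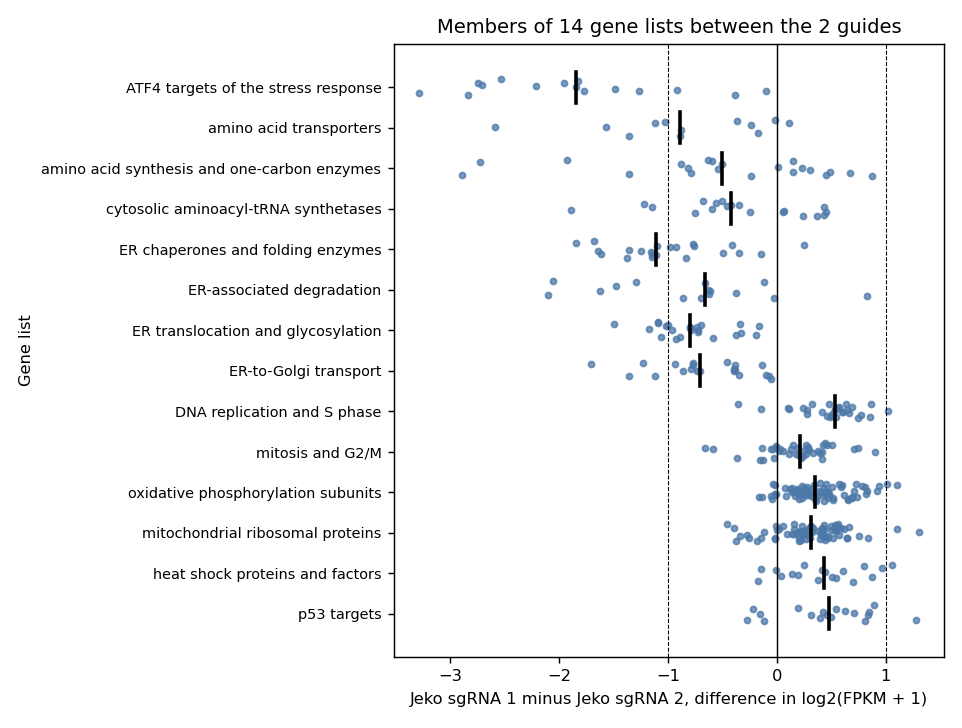
Difference between the guides (sgRNA 1 minus sgRNA 2, in log2(FPKM + 1)) for each member of 14 gene lists, with 1 point per gene, a bar at the list's median, a solid line at 0 and dashed lines at 2-fold. The ATF4, amino acid and ER lists lie to the left with medians from -1.84 to -0.42, and the lists of DNA replication, mitosis, mitochondria, heat shock and p53 lie to the right with medians from 0.21 to 0.54.

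Cytosolic chaperones did not follow the ER ones. Of 18 heat shock genes 15 were higher with sgRNA 1, with a median of 0.43, where 44.7% of protein-coding members lay below 0. HSP90AA1, an abundant cytosolic chaperone, was at 341 FPKM in the control, 693 with sgRNA 1 and 332 with sgRNA 2 (1.06). It was the 1 gene of the list past 2-fold, beside 0.948% of protein-coding members. HSPE1, of the mitochondrial matrix, was at 268, 331 and 169 FPKM (0.96). The plasma cell list, whose median was 0.38 over 8 members, held genes on both sides. The ectoenzyme gene CD38 was at 33.4, 65.1 and 29.1 FPKM (1.14) and the immunoglobulin J chain gene IGJ at 1218, 1858 and 905 FPKM (1.04), while MZB1, an ER co-chaperone of immunoglobulin assembly, was at 201, 126 and 261 FPKM (-1.05). MZB1 thus sat with the ER genes in direction.

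Cell cycle programmes differed by less. Genes of DNA replication and S phase had a median of 0.54 over 30 members, and 28 of the 30 were higher with sgRNA 1, but 1 passed 2-fold (beside 0.948% of protein-coding members). That gene was UNG, which removes uracil from DNA, at 115 FPKM in the control, 119.5 with sgRNA 1 and 58.6 with sgRNA 2 (1.02). The median against the control was 0.13 with sgRNA 1 and -0.41 with sgRNA 2 (0.08 and -0.39 adjusted for length), and sgRNA 2 was the farther in 21 genes. The library labelled Rec-1 control stood as far from the Jeko control in these genes, with a median of -0.41. MCM5, a subunit of the replicative helicase, was at 101, 132 and 71.8 FPKM (0.87).

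Mitosis genes lay nearer to level, with a median of 0.21 over 40 members and 0 of 40 past 2-fold in either direction. CKS2, a cyclin-dependent kinase partner, was at 234 FPKM in the control, 304 with sgRNA 1 and 162 with sgRNA 2 (0.90), and the kinetochore gene CENPF at 20.5, 28.6 and 16.7 FPKM (0.75). The G1 list had a median of 0.05 over 11 members, again with 0 past 2-fold. CCND1, the cyclin D1 gene whose translocation defines mantle cell lymphoma, was at 598, 815 and 442 FPKM (0.88), and the inhibitor CDKN2D at 6.53, 3.81 and 7.19 FPKM (-0.77). Replication-dependent histone genes, at -0.07 between the guides over 47 members, were high in both: their median was 2.01 above the control with sgRNA 1 and 1.88 with sgRNA 2. Adjusted for length the medians were 2.30 and 2.36 over 43 genes, which turns the order of the guides. HIST1H2BI was the 1 histone gene 2-fold apart (1.18). The library labelled Rec-1 control was 1.31 above the Jeko control in the same genes, and most histone mRNAs lack a poly(A) tail.

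Mitochondrial genes were modestly higher with sgRNA 1. Of 152 subunits of the mitochondrial ribosome and of oxidative phosphorylation 130 were higher with sgRNA 1 than with sgRNA 2, and 4 were so by 2-fold. Among protein-coding members 44.7% lay below 0 and 0.948% were 2-fold higher with sgRNA 1. Medians were 0.31 and 0.35 for the 2 lists. The sgRNA 2 library was below the control in 145 of the 152 and sgRNA 1 in 133, and sgRNA 2 was the farther in 126. These counts against the control follow the length trend in part: after adjustment sgRNA 1 was below the control in 38 of 76 mitochondrial ribosomal genes and 45 of 75 oxidative phosphorylation genes, and sgRNA 2 in 61 and 67. The mitochondrial ribosome median against the control went from -0.28 to -0.004 with sgRNA 1 and from -0.59 to -0.28 with sgRNA 2. For oxidative phosphorylation the median against the control was -0.26 with sgRNA 1 and -0.67 with sgRNA 2, which became -0.06 and -0.37 once adjusted for length, since these transcripts are short. NDUFB6, a subunit of complex I, was at 88.6 FPKM in the control, 68.9 with sgRNA 1 and 31.6 with sgRNA 2 (1.10), and NDUFA9 at 99.8, 122 and 60.1 FPKM (1.01). The mitochondrial ribosomal genes MRPS28 and MRPS15 read 38.2, 43.6 and 17.0 FPKM (1.31) and 134, 109 and 50.1 FPKM (1.10).

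Sterol and sugar metabolism differed by little as lists. Cholesterol and fatty acid synthesis had a median of 0.18 over 21 members, with 2 past 2-fold (beside 0.948% of protein-coding members). INSIG1, a sterol sensor, was at 30.1 FPKM in the control, 31.8 with sgRNA 1 and 13.2 with sgRNA 2 (1.21), and the squalene synthase gene FDFT1 at 81.6, 47.1 and 22.4 FPKM (1.04). Glycolysis had a median of 0.38 over 21 members and 0 past 2-fold, with LDHA at 411, 519 and 285 FPKM (0.86) and PGAM1 at 116, 130 and 75.9 FPKM (0.77).

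The p53 list had a median of 0.48 over 18 members with 1 past 2-fold (beside 0.948% of protein-coding members). FDXR, a mitochondrial reductase, was at 18.9 FPKM in the control, 26.3 with sgRNA 1 and 10.3 with sgRNA 2 (1.27), and PHLDA3, an AKT inhibitor, at 6.64, 17.7 and 9.09 FPKM (0.89). Against the control the list stood at 0.52 with sgRNA 1 and 0.26 with sgRNA 2, and at 0.44 and 0.08 once adjusted for length. Among 11 BCL2 family genes, with a median of 0.15, the pro-death gene BMF was at 14.3, 9.47 and 31.8 FPKM (-1.65) and PMAIP1 (NOXA) at 317, 227 and 443 FPKM (-0.97). The autophagy gene MAP1LC3B was at 39.7, 22.1 and 74.7 FPKM (-1.71) and the adaptor gene SQSTM1 at 52.5, 44.4 and 72.7 FPKM (-0.70), in a list whose median over 11 members was -0.19. These 4 genes had the control between the guides.

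Signalling lists were near level between the guides. B-cell receptor genes had a median of 0.29 over 19 members with 0 past 2-fold. Its farthest members were CD79B, a receptor chain, at 195, 151 and 258 FPKM (-0.77) and the adaptor PIK3AP1 at 31.8, 60.4 and 35.7 FPKM (0.74). NF-kB targets had a median of 0.13 over 11 members with 0 past 2-fold, led by CCR7 (0.84) and ICAM1 (-0.71). Of 10 interferon-stimulated genes 2 were 2-fold lower with sgRNA 1, beside 2.58% of protein-coding members. They were IRF9, at 6.66, 3.01 and 9.20 FPKM (-1.35), and IRF7, at 19.5, 7.996 and 19.1 FPKM (-1.16). IRF9 was under 5 FPKM with sgRNA 1 and passed the filter through sgRNA 2. The immediate early list, to which NR4A1 is related in function, had a median of 0.12 over 13 members, with KLF2 2-fold higher (1.195) and BTG1 2-fold lower (-1.15). The antigen presentation genes CD74 and CIITA, at 0.59 and 0.43, led 5 MHC class II genes with a median of 0.05.

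In the remaining lists at most 1 member was 2-fold apart. Cytosolic ribosomal proteins had a median of -0.08 over 80 members with RPS27L past 2-fold and RPS26 next at 0.57. Ribosome biogenesis had a median of 0.27 over 24 members with 0 past 2-fold, led by BOP1 (0.65) and NOP2 (0.64). Proteasome subunits, with a median of 0.16 over 35 members, also had 0 past 2-fold, led by PSMD3 (0.89) and PSMB3 (0.69). NRF2 targets of the oxidative stress response had a median of 0.22 over 13 members and 0 past 2-fold. There FTH1, the ferritin heavy chain, was at 315, 217 and 407 FPKM (-0.91).

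Ranked by size among protein-coding members, 5 of the 10 genes lowest in sgRNA 1 relative to sgRNA 2 came from the lists above: INHBE, ASS1, TRIB3, PPP1R15A and CBS. The other 5 were low in the sgRNA 1 library, all under 1 FPKM. MFAP4, an extracellular matrix glycoprotein (chr17:19286755-19290503), was at 10.6 FPKM in the control, 0.968 with sgRNA 1 and 21.9 with sgRNA 2 (-3.54). UNC5B, a netrin receptor (chr10:72972327-73062621), was at 2.53, 0.473 and 15.5 FPKM (-3.49), and the transporter gene SPNS3 (chr17:4337235-4391503) at 4.07, 0.708 and 16.9 FPKM (-3.39). CTSZ, a lysosomal cathepsin (chr20:57560741-57583293), was at 6.02, 0.718 and 16.5 FPKM (-3.35), and HID1 (chr17:72946837-72969261) at 1.27, 0.621 and 10.6 FPKM (-2.83). In all 5 the control lay between the guides, and they passed the filter through sgRNA 2 alone, so a large difference was built into their passing. The library labelled Rec-1 control stood 1.3 above the Jeko control in UNC5B and 1.34 in SPNS3. In MFAP4, CTSZ and HID1 those libraries were within 2-fold.

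At the other end, MYL4, a myosin light chain (chr17:45277812-45301045), was at 16.5 FPKM in the control, 23.8 with sgRNA 1 and 4.20 with sgRNA 2 (2.25). TCL1B, of the TCL1 family of AKT activators (chr14:96152763-96158965), was at 38.3, 52.2 and 12.4 FPKM (1.99). LHFP was at 7.26, 11.3 and 2.44 FPKM (1.84), and GMFG, an actin regulator of blood cells, at 32.7, 42.1 and 11.3 FPKM (1.81). ID3, an inhibitor of E-protein transcription factors in B cells (chr1:23884417-23885992), was at 85.0, 132 and 37.1 FPKM (1.80). In these 5 sgRNA 2 was more than 2-fold below the control while sgRNA 1 was within 2-fold above it. MYL4 and LHFP were under 5 FPKM with sgRNA 2 and passed the filter through sgRNA 1, so a large difference was built into their passing too.

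Genes ranked next were mixed. CDCA7L was at 21.6, 40.1 and 10.96 FPKM (1.78), ADORA1, an adenosine receptor, at 5.77, 13.1 and 3.82 FPKM (1.55) and RPS27L, a p53-induced relative of a ribosomal protein, at 51.0, 113 and 38.0 FPKM (1.54). For ADORA1 and RPS27L it was sgRNA 1 that stood 2-fold from the control. ADORA1 was under 5 FPKM with sgRNA 2 and passed the filter through sgRNA 1. RPS27L has a close relative, RPS27, with which fragments can be shared. MYBPH was at 19.5, 20.8 and 6.98 FPKM (1.45), with sgRNA 1 near the control and sgRNA 2 more than 2-fold below it.

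The guides of the same numbers in the libraries labelled Rec-1 were set beside the Jeko pair. Whether their sequences are those used in Jeko is not given in the sources used here. Of 7493 protein-coding rows with a mean of 5 FPKM or more in those 2 libraries, 122 were 2-fold higher with sgRNA 1 (1.63%) and 84 lower (1.12%), so in Rec-1 the excess was on the higher side. Over 6639 genes that passed both filters, 169 were 2-fold lower with sgRNA 1 in Jeko and 65 in Rec-1, and 9 were so in both: FCRLA, GPR18, PEA15, PLXNA1, PSAT1, REEP5, SMIM14, TSC22D3 and TXNIP. That is 5.33% of the Jeko genes, beside 1.12% of all protein-coding rows 2-fold lower in Rec-1. It is 13.8% of the Rec-1 genes, beside 2.58% of all protein-coding rows 2-fold lower in Jeko. On the higher side 2 genes, GBE1 and PFN1, were shared by 52 in Jeko and 91 in Rec-1 (3.85% and 2.20%). The shares of all protein-coding rows to set beside these are 1.63% higher in Rec-1 and 0.948% higher in Jeko. These shares over all rows use each line's own filter. Of the 169 genes, 123 had the same sign in Rec-1 (72.8%), with a median of -0.28, where 54.7% of all 6639 genes lay below 0 in Rec-1. On the higher side 39 of 52 had the same sign, with a median of 0.25, where 45.3% of all lay above 0. Pearson's r between the 2 lines' differences was 0.244 and Spearman's rho 0.234 across genes, which are not independent replicates.

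By list, some differences were smaller in Rec-1 and others larger. ATF4 targets had a median of -0.31 there against -1.84 in Jeko, and 11 of 15 were lower with sgRNA 1. ER chaperones had a median of -0.09 against -1.11, and ER translocation genes -0.35 against -0.79, with 22 of 23 lower. PSAT1 was 2-fold lower in both lines (-1.92 and -1.52). HSPA5 stood at 410 and 494 FPKM with the Rec-1 guides. DNA replication genes had a median of -0.10 in Rec-1 against 0.54 in Jeko. Interferon-stimulated genes had a larger median in Rec-1, -1.001 against -0.24, with 5 of 10 2-fold lower there (beside 1.12% of protein-coding rows). So did cholesterol and fatty acid synthesis (0.62 against 0.18) and the histone genes (-0.29 against -0.07). Of 47 histone genes 12 were 2-fold lower in Rec-1 and 2 were 2-fold higher, beside 1.12% and 1.63% of protein-coding rows. Proteasome subunits changed side (-0.23 against 0.16). List members passed the filter on the Jeko guides alone, so some may be under 5 FPKM in Rec-1. Whether the lines differ in these lists was not tested.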

How the data were processed

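The members, the gene lists and the comparisons were chosen with earlier results of these data known. The authors deposited 1 table of FPKM for 6 libraries of 2 lines, per the file headers. TopHat and the hg19 build are named without a role in the submitters' processing notes, and the FPKM program, the gene annotation and any use of strand are not given in the sources used here. FPKM are not counts, so read depth is unknown and no count model was used. Without strand, fragments of overlapping genes cannot be told apart. Some 28 gene names in the table are calendar dates and were kept unmatched.

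Differences were taken as log2(FPKM + 1) over rows with a mean of 5 FPKM or more, and 2-fold means a difference of 1. With 1 library per group there are no replicate errors and no tests. Gene types, positions on GRCh37 and transcript lengths came from GENCODE 44, matched by symbol or RefSeq synonym (22947 rows). Promoters came from RefSeq on GRCh38.p14, whose coordinates are printed for promoters alone. The named genes were DDIT3, ATF4, HSPA5 and NR4A1, up to 8 members past 2-fold in each list with a median 0.5 or more from 0 or with 3 or more such members, the leading 2 of each other list, and the 10 genes farthest to each side; some of the genes that meet this rule are not reported here. Other named genes (such as ATF5, KLHL24, JDP2, ASNS, GPT2, OAT, ERO1L, UFD1L, STT3B, MCM5 and ATF6) were chosen after their values were seen. The code was tested on simulated data. Alternatives were 2 other pseudocounts, 3 other filters, 2 other scalings, 2 other fold thresholds and 2 restrictions of the rows, plus a transcript length adjustment in 20 length bins that was added after the data were seen. Python 3.11.15, pandas 2.3.3, numpy 2.4.6, scipy 1.17.1 and matplotlib 3.10.9 were used.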

Additional observations from a re-analysis of the deposited data

Results flagged for a closer look

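Among the genes chosen by the naming rule, 3 that were 2-fold apart between the Jeko guides and at 5 FPKM or more in both Rec-1 guides differed between the Rec-1 guides by at least 0.5 on the log2(FPKM + 1) scale in the opposite direction. TRIB3 was -2.84 in Jeko (sgRNA 1 minus sgRNA 2) and 0.61 in Rec-1. ERN1 was -1.89 in Jeko and 0.55 in Rec-1. UNG was 1.02 in Jeko and -0.78 in Rec-1. Outside that choice, MEF2B (-2.56 in Jeko and 0.90 in Rec-1) and CEBPB (-1.77 and 0.59) also had opposite signs, as did MYBPH (1.45 and -0.71), which was under 5 FPKM in Rec-1. Each value rests on 1 library a side, and the difference between the lines was not tested.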

How the results depend on the processing

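With 1 library per group no library could be left out, and read depth, which limits the genes of low FPKM, is unknown. No paired analysis was possible because each guide has 1 library. No named gene 2-fold apart and no list median 0.5 or more from 0 changed sign under the 12 alternatives. Smaller medians did: NF-kB targets (0.13) were at -0.13 with a mean of 1 FPKM, -0.49 with a mean of 20 and -0.03 with no filter, BCL2 genes (0.15) at -0.39 with a mean of 20 and just under 0 with no filter, MHC class II genes (0.05) at -0.04 with a mean of 20 and -0.0068 adjusted for length, and the G1 list (0.05) at -0.02 adjusted for length. Of 120 counts 79 stayed within 1.5 times, of 309 list medians 307 stayed within 0.58 of the reported value, and of 1016 single-gene values 1001 did; the medians that did not were ATF4 targets at -2.53 and NF-kB targets at -0.49, both with a mean of 20 FPKM or more. Under all alternatives the ATF4 median lay between -2.53 and -1.30, the ER chaperone median between -1.16 and -1.004 and the DNA replication median between 0.47 and 0.56. Centring and upper quartile scaling shifted the median of all genes by less than 0.1.

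Rows higher with sgRNA 1 numbered 71 among protein-coding rows, 74 without small RNA rows, 635 at 1.5-fold, 65 at 3-fold and 56 after the length adjustment (20.5% of calls, against 26.9% of protein-coding calls without it). Rows lower numbered 137 at a mean of 20 FPKM, 660 at 1.5-fold and 107 at 3-fold. The counts of protein-coding genes by position of the control depended most on the settings, and the cause was not tested. For genes higher with sgRNA 1, those apart from the control with sgRNA 1 alone numbered 18 with a pseudocount of 0.1 (1 with both guides), 2 with a pseudocount of 5, 18 at a mean of 1 FPKM, 5 at a mean of 20, 19 with no filter and 7 with upper quartile scaling. Those apart with sgRNA 2 alone numbered 13 with a pseudocount of 5, 18 at a mean of 20 and 15 after the length adjustment, and those apart with neither numbered 48 with no filter. For genes lower with sgRNA 1, a pseudocount of 5 gave 41 with sgRNA 2 alone, 2 with both and 54 with neither; a mean of 20 gave 24 with sgRNA 1 alone, 33 with sgRNA 2 alone, 2 with both and 45 with neither. At 1.5-fold the counts for sgRNA 1 alone, sgRNA 2 alone, both and neither were 96, 222, 32 and 155 for genes higher with sgRNA 1 and 155, 231, 62 and 130 for genes lower. At 3-fold they were 0, 1, 0 and 5 for genes higher and 18, 14, 0 and 32 for genes lower.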

Other observations

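The genes and values here were chosen after the data were seen. Several genes were above the Jeko control in both guide libraries, though HSPA8 and DNAJA1 by 2-fold or more with sgRNA 1 alone. The cytosolic chaperone gene HSPA8 was at 223 FPKM in the control, 808 with sgRNA 1 and 441 with sgRNA 2, and its co-chaperone gene DNAJA1 at 71.0, 233 and 134 FPKM. The immediate early genes FOS (1.05, 17.3 and 15.4 FPKM) and EGR1 (2.12, 33.7 and 31.99 FPKM) were nearly level between the guides. In B-cell genes, PLCG2, a phospholipase of receptor signalling, read 14.02, 46.9 and 30.7 FPKM, and the inhibitory coreceptor gene CD22 read 3.57, 12.8 and 8.95 FPKM. MS4A1 (CD20) had the control between the guides, at 90.0, 132 and 67.8 FPKM.

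Further protein-coding genes far apart between the guides lay outside the lists. ALOX5AP, needed for leukotriene synthesis, was at 64.4 FPKM in the control, 23.9 with sgRNA 1 and 141 with sgRNA 2 (-2.51). CCPG1, a receptor for autophagy of the ER, was at 10.1, 8.37 and 50.4 FPKM (-2.46), and MEF2B, a B-cell transcription factor, at 217, 40.0 and 241 FPKM (-2.56), with the opposite sign in Rec-1 (0.90); both overlap readthrough genes, between which fragments cannot be told apart. PLXNA1, a semaphorin receptor, was at 4.37, 1.85 and 14.6 FPKM (-2.45) and was also 2-fold lower in Rec-1 (-1.29). It was under 5 FPKM with sgRNA 1 and passed the filter through sgRNA 2. On the other side the transcription factor gene SOX4 was at 17.1, 36.1 and 13.1 FPKM (1.40). GBE1, the glycogen branching enzyme, was at 21.7, 42.1 and 15.7 FPKM (1.37) and 1.11 in Rec-1.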
